A study of Mus musculus with 6 samples.

Results

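The transcripts described are those of 9 genes that cells switch on in answer to interferon: Rsad2, Ifit1, Ifit3, Oasl2, Isg15, Irf7, Usp18, Bst2 and Ifih1. They were taken by symbol from the 78298 gene identifiers of the table, and all 9 had a mean of at least 10 normalised counts, as did 17391 genes in all. The polyadenylated RNA of the left brain of 6 male mice was sequenced, 3 wild type and 3 Top2b-low, 1 library each, and values per library are listed below in the order of replicates 1, 2 and 3. Top2b-low mice are homozygous for a Top2b allele whose coding sequence begins with an auxin-inducible degron, a tag placed there by CRISPR/Cas9, and no drug was given to either genotype before isoflurane anaesthesia. The age is stated as 10 weeks in one place and 3.5 months in another. Replicate 3 of both genotypes has a library name starting with N22, and that of the Top2b-low replicate ends in dNdN, a suffix the labels do not define. The question was how a lowered Top2b level alters transcripts of the adult brain.

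Type I interferons are secreted cytokines that signal through a receptor made of Ifnar1 and Ifnar2 and the kinases Jak1 and Tyk2. Transcription factors, Stat2 and Irf9 among them, then bind a response element in the promoters of target genes. Cells also sense viral or misplaced self nucleic acid through receptors such as Ifih1, which leads back to interferon through Irf3 and Irf7. In the healthy brain this system runs at a low tonic level, and microglia, endothelial cells, astrocytes and neurons can all respond.

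In the Top2b-low mice 8 of the 9 genes had a higher mean log2 level than in wild type and Ifih1 had a nearly equal one, but none of them passed the test over all genes. The median log2 fold change of the 9 was 0.50, against −0.0021 for the 17391 genes tested. The 9 genes were chosen with earlier results of these data known, so the shares of all genes given beside them are a description and no support. Genes higher by any amount made up 49.4% of those tested. Rsad2, Oasl2 and Isg15 were higher in every Top2b-low library than in every wild-type library, a count of 3 of 9, while 2.7% of the genes tested were higher without overlap. A log2 fold change of at least 0.5 was reached by 5 of the 9, Rsad2, Ifit1, Ifit3, Oasl2 and Isg15, and by 2.29% of the genes tested. At a Benjamini-Hochberg adjusted p under 0.05 limma called 0 of the 9, and it called 0% of the genes tested. At an unadjusted p under 0.05 it left 3 of the 9, Rsad2, Ifit1 and Ifit3, where 0.512% of the genes tested were higher at that p. On the recovered reads edgeR and DESeq2 also called 0 of the 9, and each left 2 at an unadjusted p under 0.05. At that p stood 1.44% of the 17391 genes with edgeR and 0.533% of 35806 genes with DESeq2, in either direction. With the replicate number as a block limma left 4 of the 9 at that p, among 6.72% of the genes, in either direction. DESeq2 called 0.0512% of 25403 genes with that block and 0.14% of 14985 with a term for the N22 libraries, none of them among the 9. In bulk tissue more cells of a type and more RNA per cell cannot be told apart, nor can fewer cells and less RNA per cell.

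**Figure D1:**
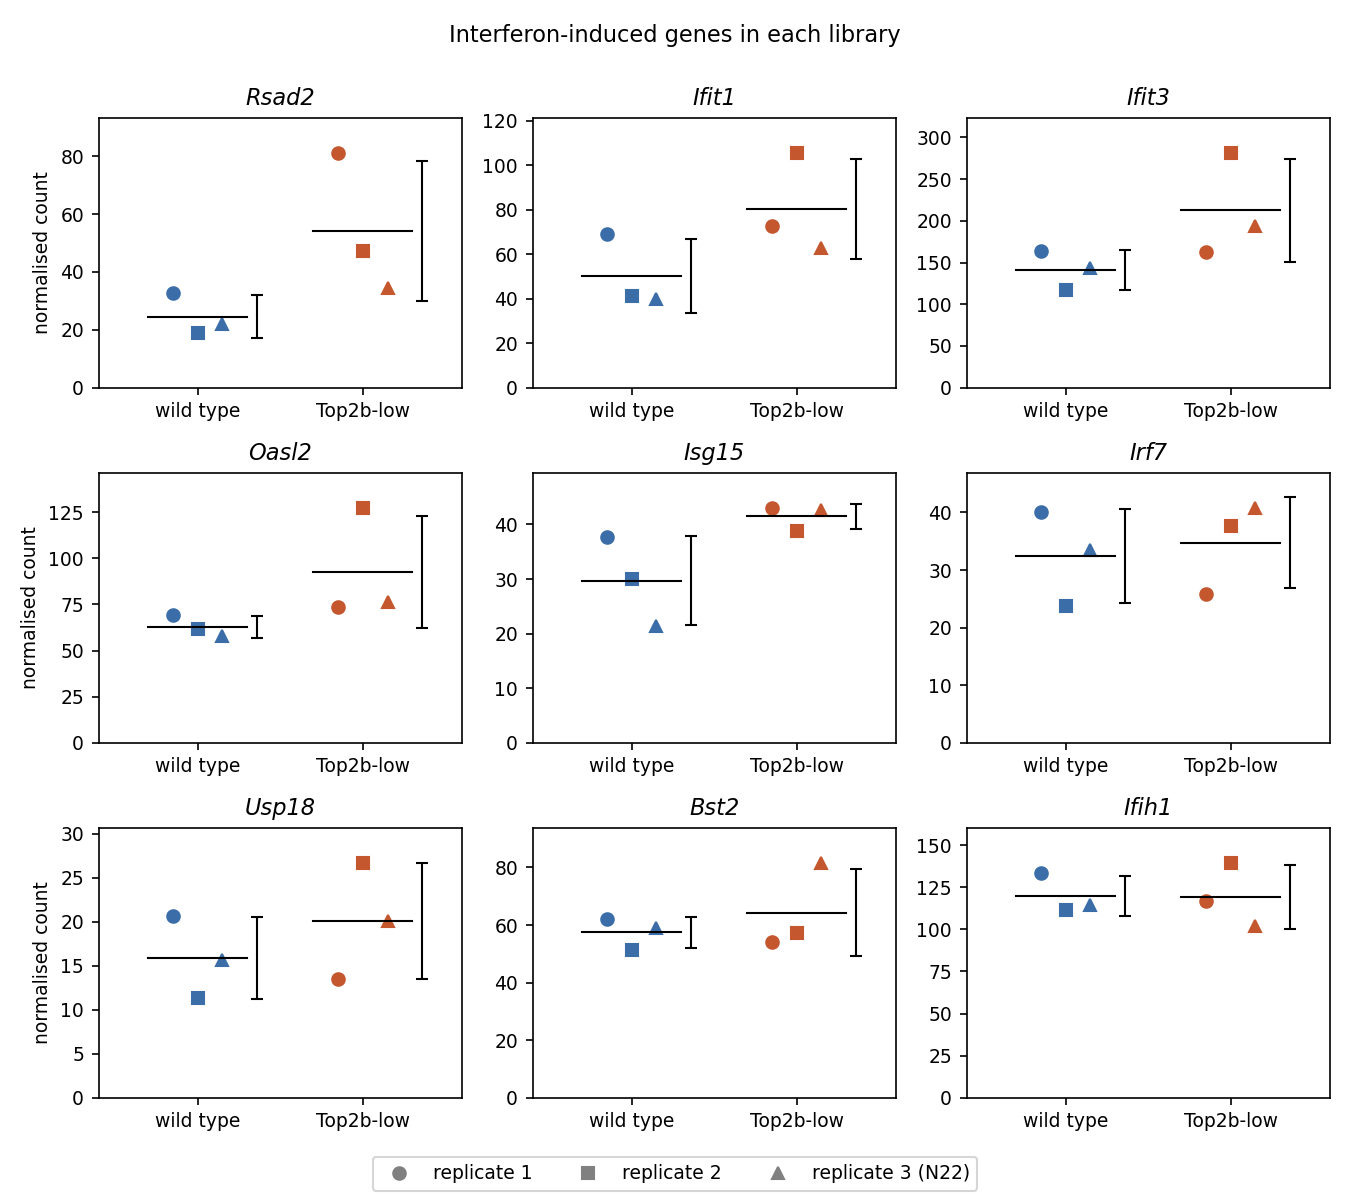
Normalised count (vertical axis, from 0) of each of the 9 genes in each library, with the mean as a line and the SD of the 3 libraries as a bar beside it. Rsad2, Oasl2 and Isg15 do not overlap between genotypes, Ifit1 and Ifit3 overlap through wild type replicate 1, and wild type replicate 1 is the highest wild-type library in all 9 panels.

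As a check of the labels, Top2b itself (ENSMUSG00000017485) counted 3160, 3014 and 2485 in wild type against 2152, 2314 and 1965 in Top2b-low (log2 fold change −0.42, SE 0.11, limma unadjusted p = 0.00629, adjusted p = 0.99997), without overlap. Library totals, summed from whole numbers recovered from the table and called reads, ran from 16963067 to 35246703 reads. All 8 neuron markers, Snap25 and Rbfox3 among them, passed the filter, with summed levels of 135841 to 143824 normalised counts in wild type against 138870 to 146886 in Top2b-low. The cerebellar granule cell gene Gabra6 had 1 read in each N22 library and 2020 to 2348 normalised counts in the other 4, and the 8 granule cell markers summed to 3873 and 3935 in N22 against 20885 to 25372. The N22 libraries thus hold less cerebellar RNA, so results are also given outside N22 and in the N22 pair.

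Promoter sequences are shown because the 9 genes are grouped by a shared response to interferon. The core of the response element was searched as TTTC and again TTTC, parted by any 2 bases, and as GAAA and GAAA likewise parted, its form on the other strand, in RefSeq windows of 250 bases before to 50 bases after each gene's start (build GRCm38.p6, matched by symbol). A window was at hand for 8 of the 9 genes, all but Usp18. The motif occurred in 6 of these 8 and in 3.44% of the 32851 windows of all genes, and 4 of the 8 held 2 or more matches, overlaps included, as did 0.225% of all windows. The 200 bases before the start are printed 5′ to 3′ on the gene's strand for 5 genes with the motif there and for Oasl2, whose window has none, with the motif in capitals. They lie at chr12:26456453-26456652 (minus strand) for Rsad2, chr19:34640689-34640888 (plus strand) for Ifit1, chr19:34583329-34583528 (plus strand) for Ifit3, chr4:156200819-156201018 (minus strand) for Isg15, chr8:71537473-71537672 (minus strand) for Bst2 and chr5:114896734-114896933 (plus strand) for Oasl2. In Isg15 the capitals cover 3 overlapping matches and in Bst2 they cover 2.
Rsad2: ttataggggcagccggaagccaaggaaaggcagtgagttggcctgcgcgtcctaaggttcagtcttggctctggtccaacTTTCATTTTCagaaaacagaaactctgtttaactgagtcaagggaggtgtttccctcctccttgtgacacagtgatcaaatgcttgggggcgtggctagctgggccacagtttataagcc
Ifit1: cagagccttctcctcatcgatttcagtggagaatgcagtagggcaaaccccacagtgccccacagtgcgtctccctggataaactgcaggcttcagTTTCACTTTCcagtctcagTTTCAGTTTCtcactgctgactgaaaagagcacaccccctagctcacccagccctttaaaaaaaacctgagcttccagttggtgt
Ifit3: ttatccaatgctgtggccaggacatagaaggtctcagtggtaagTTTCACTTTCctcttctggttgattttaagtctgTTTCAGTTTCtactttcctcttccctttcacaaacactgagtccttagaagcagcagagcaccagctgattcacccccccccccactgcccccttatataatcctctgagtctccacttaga
Isg15: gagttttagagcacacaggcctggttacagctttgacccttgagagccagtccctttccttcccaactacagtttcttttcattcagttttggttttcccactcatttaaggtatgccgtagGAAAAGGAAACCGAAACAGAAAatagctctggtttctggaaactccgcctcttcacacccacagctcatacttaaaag
Bst2: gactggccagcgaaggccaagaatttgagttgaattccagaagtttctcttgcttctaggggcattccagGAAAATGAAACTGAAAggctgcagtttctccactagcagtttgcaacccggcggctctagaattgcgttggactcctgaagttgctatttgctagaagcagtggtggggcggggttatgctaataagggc
Oasl2: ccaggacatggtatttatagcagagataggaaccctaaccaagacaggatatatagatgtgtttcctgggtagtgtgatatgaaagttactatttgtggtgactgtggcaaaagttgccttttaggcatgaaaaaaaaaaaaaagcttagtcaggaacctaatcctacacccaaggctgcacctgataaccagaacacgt
The Ifih1 window holds 1 match, 32 bases past the start, and the Irf7 window holds none. Of the 5 genes with matches before the start, Rsad2, Ifit1, Ifit3 and Isg15 had log2 fold changes of 1.06, 0.68, 0.56 and 0.50, and Bst2 had 0.14. With none in the window, Oasl2 stood at 0.51, higher without overlap, and Irf7 at 0.10. Ifih1 stood at −0.01. A relation of matches to fold changes was not tested. A match is a stretch of letters, not a measured binding site.

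Rsad2 (ENSMUSG00000020641) encodes viperin, a radical SAM enzyme that makes a chain-terminating nucleotide against viral polymerases. It counted 32.8, 18.8 and 22.05 normalised counts in wild type against 81.2, 47.3 and 34.3 in Top2b-low. All 3 Top2b-low libraries stood above the 3 wild-type ones, but the gap between the lowest Top2b-low and the highest wild-type value was small. The means were 24.5 ± 7.32 and 54.3 ± 24.2 (SD, n = 3 each), 121% higher. The log2 fold change was 1.06 (SE 0.36, 95% interval 0.21 to 1.92), with a limma unadjusted p of 0.0213 and an adjusted p of 0.99997. With 20 ways to label 6 libraries the exact two-sided permutation p cannot go below 0.1, and Rsad2 reached that bound (p = 0.1). These values rest on 15 to 66 reads per library. In Top2b-low replicate 1 the 66 reads give an exact Poisson 95% interval of 62.8 to 103 normalised counts, and in wild type replicate 1 the 27 reads give 21.6 to 47.7, intervals of counting error only. These intervals take the recovered whole numbers as counted reads, which they may not be: RSEM estimates, if rounded, carry further error where genes share sequence, as Ifit3 does. For Top2b-low replicate 3 the interval was 26.1 to 44.4, so by counting error alone it cannot be set apart from wild type replicate 1. Without Top2b-low replicate 1 the log2 fold change was 0.73, the lowest of the 6 omissions. It was 1.29 outside N22 and 0.62 in the N22 pair, higher in both. Cmpk2, a mitochondrial nucleotide kinase gene that lies next to Rsad2 on chromosome 12 and is induced with it, counted 475 to 551 in wild type against 529 to 589 in Top2b-low.

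Ifit1 and Ifit3 encode tetratricopeptide repeat proteins of one cluster on chromosome 19. Ifit1 binds RNA whose cap lacks the methylation of host transcripts, and Ifit3 belongs to the same family. Ifit1 (ENSMUSG00000034459) counted 69.2, 41.4 and 39.8 in wild type against 72.6, 106 and 62.7 in Top2b-low. The groups overlapped through wild type replicate 1, which lay above Top2b-low replicate 3, and the highest value was in Top2b-low replicate 2. The means were 50.1 ± 16.6 and 80.3 ± 22.5 (SD, n = 3 each), with a log2 fold change of 0.68 (SE 0.29, limma unadjusted p = 0.0491, adjusted p = 0.99997). Ifit3 (ENSMUSG00000074896) counted 164, 117 and 144 against 162, 282 and 193. Here Top2b-low replicate 1 was level with wild type replicate 1, and Top2b-low replicate 2 stood far above the other 5 libraries. Its means were 141 ± 23.8 and 213 ± 61.8 (SD, n = 3 each), with a log2 fold change of 0.56 (SE 0.23, limma unadjusted p = 0.0415, adjusted p = 0.99997). The exact permutation p was 0.2 for both genes. Of the 100-base words in annotated Ifit3 transcripts 31.7% also occur in the neighbouring copy Ifit3b, and 3.29% of those of Ifit1 occur in Ifit1bl2, so reads may have been shared between copies. Ifit3b counted 57.7 to 80.4 in wild type against 82.6 to 91.1 in Top2b-low. Ifit2, of the same cluster, counted 242 to 270 and 256 to 306.

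Oasl2 (ENSMUSG00000029561), a member of the oligoadenylate synthetase family, counted 69.2, 61.4 and 57.6 in wild type against 73.8, 127 and 76.3 in Top2b-low. The groups did not overlap, yet Top2b-low replicates 1 and 3 lay close above the wild-type range and only replicate 2 stood well clear of it. The means were 62.7 ± 5.93 and 92.5 ± 30.3 (SD, n = 3 each). The log2 fold change was 0.51 (SE 0.24, limma unadjusted p = 0.0682, adjusted p = 0.99997) and 0.26 without Top2b-low replicate 2. Bst2 (ENSMUSG00000046718) encodes tetherin, which holds budding virus at the cell surface. It counted 61.9, 51.4 and 59.0 against 54.1, 57.1 and 81.6. The groups overlapped and the upper value lay in Top2b-low replicate 3 alone, so its log2 fold change of 0.14 (SE 0.21) turned to −0.04 without that library.

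Isg15 (ENSMUSG00000035692) is a ubiquitin-like protein that is joined to other proteins in the interferon response. It counted 37.7, 30.1 and 21.3 in wild type against 43.1, 38.8 and 42.6 in Top2b-low. The 3 Top2b-low values were alike and lay above the wild-type values, whose spread was wider. The gap was small, with 32 reads in Top2b-low replicate 2 and 31 in wild type replicate 1. Their exact Poisson 95% intervals were 26.6 to 54.8 and 25.6 to 53.4 normalised counts. By counting error alone these libraries cannot be set apart. The means were 29.7 ± 8.17 and 41.5 ± 2.31 (SD, n = 3 each), 39.8% higher, with a log2 fold change of 0.50 (SE 0.26, limma unadjusted p = 0.0886, adjusted p = 0.99997). Without wild type replicate 3, the lowest library, it was 0.29, and it was 0.27 outside N22 and 0.96 in the N22 pair. Usp18 (ENSMUSG00000030107), the protease that removes Isg15 and damps signalling at the interferon receptor, counted 20.6, 11.3 and 15.6 against 13.5, 26.7 and 20.1. Its groups overlapped, and its log2 fold change of 0.31 (SE 0.37, limma unadjusted p = 0.421) was the least precise of the 9, resting on 9 to 34 reads. The 9 reads of wild type replicate 2 alone allow 5.16 to 21.4 normalised counts (exact Poisson 95% interval).

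Ifih1 and Irf7 belong to the side of the system that makes interferon. Ifih1 (ENSMUSG00000026896), a helicase that senses long double-stranded RNA, counted 134, 112 and 114 in wild type against 117, 140 and 102 in Top2b-low. The groups overlapped throughout, with means of 120 ± 12.0 and 119 ± 19.0 (SD, n = 3 each) and a log2 fold change of −0.01 (95% interval −0.40 to 0.37). Irf7 (ENSMUSG00000025498), the transcription factor that amplifies interferon production, counted 40.1, 23.8 and 33.4 against 25.8, 37.6 and 40.8. It too overlapped throughout, with a log2 fold change of 0.10 (95% interval −0.57 to 0.78). The interval of Ifih1 leaves out a difference as large as that of Oasl2, and the interval of Irf7 includes one.

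**Figure D2:**
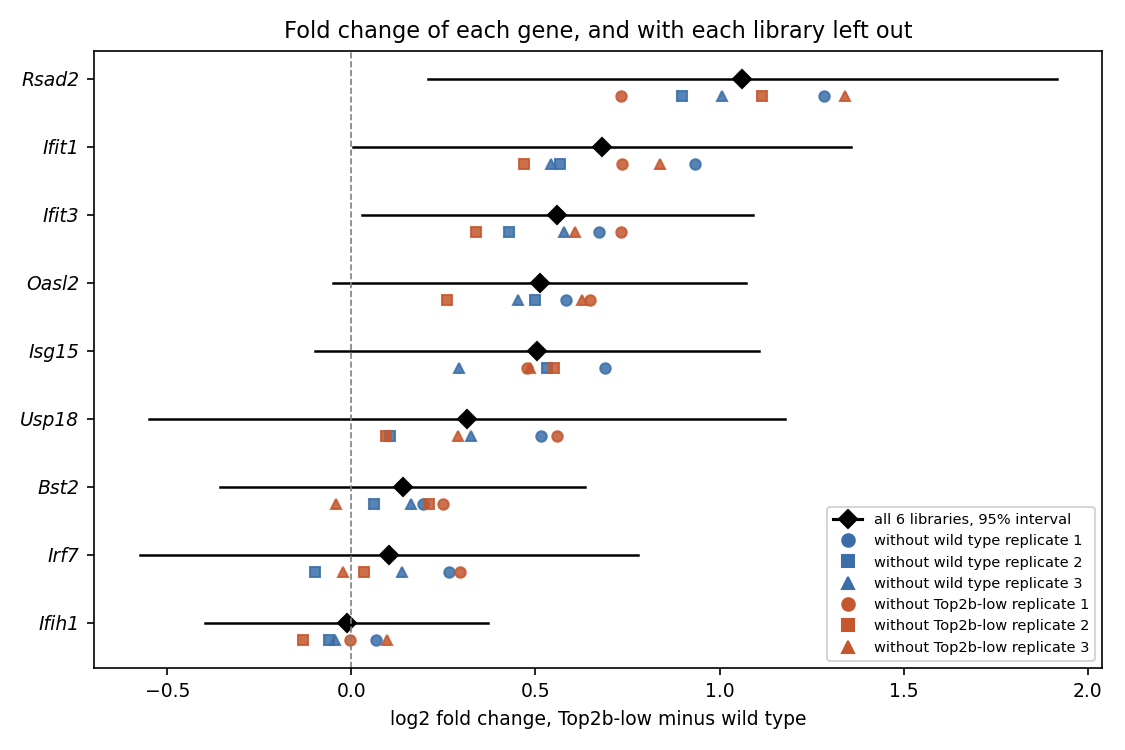
Log2 fold change (horizontal axis, Top2b-low minus wild type) of each gene in all 6 libraries with its 95% interval from limma, and below it the fold change with each library left out in turn. Rsad2, Ifit1, Ifit3, Oasl2, Isg15 and Usp18 stay above 0 under each omission, and Irf7, Bst2 and Ifih1 cross it.

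No single library held the difference of all genes. Top2b-low replicate 2 was the highest Top2b-low library for 5 genes, Ifit1, Ifit3, Oasl2, Usp18 and Ifih1, replicate 1 for Rsad2 and Isg15, and replicate 3 for Irf7 and Bst2. Leaving out Top2b-low replicate 2 lowered the median of the 9 from 0.50 to 0.26, and the log2 fold changes of Ifit1, Ifit3, Oasl2 and Usp18 to 0.47, 0.34, 0.26 and 0.09. Leaving out Top2b-low replicate 1 or replicate 3 gave medians of 0.56 and 0.49. In each Top2b-low library some genes stood above all 3 wild-type values, 4 of 9 in replicate 1, 7 in replicate 2 and 6 in replicate 3, where 18.9%, 22.9% and 27.2% of the genes tested did. Among the wild-type libraries replicate 1 was the highest for 9 of 9 genes, while it was the highest for 27.0% of all genes tested. Wild type replicate 2 was the lowest for 6 and replicate 3 for 3. The wild-type mice thus differed among themselves in these genes, and the mean of the 9 log2 levels, centred on each gene's average over the 6 libraries, was 0.08, −0.42 and −0.31 in wild type against 0.09, 0.42 and 0.14 in Top2b-low. Wild type replicate 1 and Top2b-low replicate 1 were level by this mean, and only Top2b-low replicate 2 stood well above both. The median of the 9 centred levels was 0.12, −0.45 and −0.24 in wild type against −0.03, 0.43 and 0.18 in Top2b-low. By the median, Top2b-low replicate 1 thus lay below wild type replicate 1. Without wild type replicate 1 the median log2 fold change of the 9 was 0.58, without replicate 2 it was 0.43 and without replicate 3 it was 0.32. Where either replicate 3 is left out, a lone N22 library stays in the fit, so the N22 difference enters those values. Outside N22 the median was 0.30, with 8 of 9 genes higher and Bst2 at −0.02, and in the N22 pair it was 0.43, with 8 of 9 higher and Ifih1 at −0.17. The N22 pair has 1 library per genotype and no replicate. With array weights, which let limma give less weight to libraries that vary more, 5 of 9 genes were higher, and Irf7, Usp18, Bst2 and Ifih1 were not.

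The remaining genes of the pathway were taken from lists grouped by role. Of 110 such genes with a mean of at least 10 normalised counts, 67 had a higher and 43 a lower log2 level in the Top2b-low brains, and the median log2 fold change was 0.04. None passed limma's test (adjusted p under 0.05, 0 of 110). At a limma unadjusted p under 0.05 there were 3 higher and 0 lower, where 0.512% of the genes tested were higher and 0.995% lower. Without overlap 6 were higher and 3 lower, where 2.7% of the genes tested were higher and 3.04% lower. These lists were drawn up with earlier results of these data known.

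Interferon genes themselves were not detected in the main. Of 14 ligand genes, Ifnb1, Ifng and 7 alpha interferon genes among them, 13 had 0 reads in all 6 libraries, which allows up to 1.77 to 3.76 normalised counts depending on the library. Ifnz alone had reads, 1 each in the N22 libraries. Of 5 tested receptor genes 3 were higher and 2 lower, with a median of 0.02 that turned to −0.0166 without wild type replicate 2 and to −0.0036 with array weights. Ifnar1 averaged 887 ± 107 in wild type against 946 ± 104 in Top2b-low, the shared subunit Il10rb 155 ± 39.5 and 172 ± 14.3, and the interferon gamma receptor subunit Ifngr2 644 ± 11.4 and 654 ± 33.1 (SD, n = 3 each). Each of these 3 receptor genes differed by less than its wild-type SD.

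Of the 7 JAK-STAT genes 6 were higher and 1 lower, with a median of 0.07, which was 0.02 without wild type replicate 3 and 0.03 without Top2b-low replicate 2. Stat2, which acts with Irf9 in the factor that binds the response element, counted 681, 650 and 497 in wild type against 800, 873 and 543 in Top2b-low. Both N22 libraries were low, so the groups overlapped, while within N22 and outside it the Top2b-low libraries were the higher ones. Its log2 fold change was 0.26 (SE 0.20, limma unadjusted p = 0.236). Stat3 stood at −0.14 and Jak1 at 0.07. Of 11 sensors and adaptors 5 were higher and 6 lower, with a median of −0.05, which was 0.007 with edgeR and 0.0028 with DESeq2. It was −0.13 without wild type replicate 3 or Top2b-low replicate 2, −0.10 without wild type replicate 1, −0.0118 without Top2b-low replicate 1 and −0.0056 without Top2b-low replicate 3. Ddx58, the RIG-I sensor of short double-stranded RNA, was higher without overlap, at 96.0 to 105 in wild type against 112 to 144 in Top2b-low (log2 fold change 0.30, SE 0.15, limma unadjusted p = 0.0827). Tlr7, an endosomal sensor of single-stranded RNA, stood at −0.29 and the DNA sensor Mb21d1, now called Cgas, at −0.27, with overlap. The direction of Mb21d1 turned, from −0.60 outside N22 to 0.38 in the N22 pair, on 15 to 46 reads. Of 7 kinases and regulatory factors 5 were higher, with a median of 0.05 that turned to −0.0167 without wild type replicate 1, led by Irf1 (0.35), with Irf2 at 0.13 and Irf3 at 0.05.

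**Figure D3:**
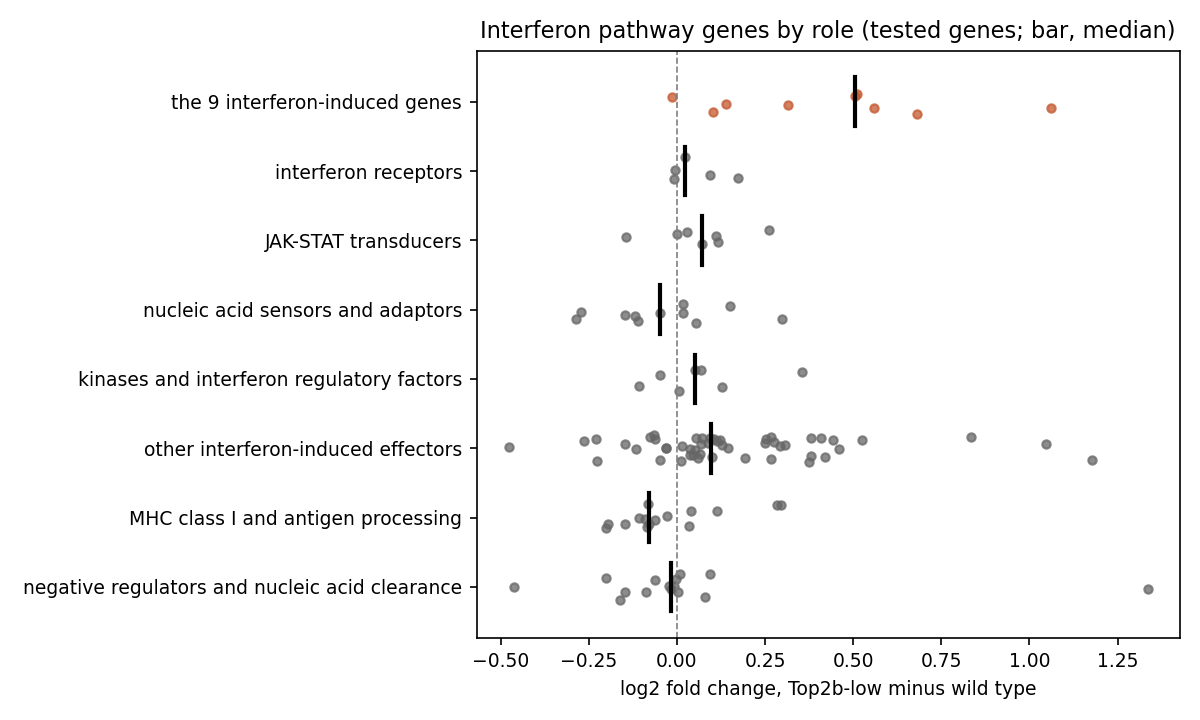
Log2 fold change (horizontal axis, Top2b-low minus wild type) of each tested gene of the interferon pathway by role, with the median of each list as a bar. The medians of the other lists lie between −0.08 and 0.10, and that of the 9 interferon-induced genes at 0.50.

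Of 50 other interferon-induced effector genes tested, 38 were higher and 12 lower, with a median of 0.10. That median was 0.20 without Top2b-low replicate 1, 0.15 without Top2b-low replicate 3, 0.055 without wild type replicate 3, 0.06 outside N22 and 0.04 with array weights. This was a smaller median than that of the 9 genes, which were picked with their values known. Phf11d counted 4.98 to 8.77 in wild type against 11.2 to 23.1 in Top2b-low, a log2 fold change of 1.05. It passed the filter on low values through the Top2b-low group, where it was high, so its unadjusted p of 0.0391 (limma) is no support, although it is 1 of the 3 counted above. It is also among the 6 pathway genes counted above as higher without overlap, and its place there is no support either. Lgals9, a secreted galectin, averaged 73.6 ± 5.03 and 98.6 ± 15.6, and Parp12, an ADP-ribosyltransferase, 200 ± 12.7 and 237 ± 1.66 (SD, n = 3 each). Neither overlapped between genotypes, with log2 fold changes of 0.41 and 0.25. Phf11d has close copies among which reads may have been shared. Ifit2 (0.14) and Cmpk2 (0.10) differed little, while the log2 fold changes of the 50 genes ran from −0.48 to 1.18. The lowest was that of Ifitm2, with overlap, at −0.81 outside N22 and 0.19 in the N22 pair. Of 15 antigen presentation genes tested 5 were higher and 10 lower, with a median of −0.08, which turned to 0.0094 with array weights and to 0.07 without wild type replicate 3, and was −0.0022 outside N22 and −0.0165 without Top2b-low replicate 2. The class I gene H2-K1, whose reads may be shared with other class I genes, counted 475 to 520 in wild type against 414 to 470 in Top2b-low, without overlap (log2 fold change −0.20, SE 0.10, limma unadjusted p = 0.0722). The peptide transporter subunit Tap2 stood at −0.20 and the immunoproteasome subunit Psmb8 at 0.29. Of 15 negative regulators and nucleases 5 were higher and 10 lower, with a median of −0.02, which was −0.0858 without wild type replicate 2. Socs1, an inhibitor of JAK kinases, counted 13.4 to 18.8 in wild type against 9.71 to 11.8 in Top2b-low, without overlap (log2 fold change −0.46, limma unadjusted p = 0.187), and Trim27 stood at −0.15.

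Isg20, an interferon-induced exonuclease from the same list, was high in the libraries with high erythroid markers. It counted 9.72, 12.5 and 11.4 in wild type against 81.2, 29.1 and 10.6 in Top2b-low. Ube2l6, the enzyme that conjugates Isg15, did likewise, at 104, 112 and 88.2 against 641, 199 and 94.1, and was chosen after its values were seen. In both, the high level lay in Top2b-low replicates 1 and 2 and replicate 3 was at the wild-type level. The 5 erythroid markers summed to 3705 to 10495 normalised counts in wild type against 114262, 30385 and 4287 in the Top2b-low libraries, and Alas2, the heme synthesis enzyme of red cell precursors, counted 99.6, 108 and 29.9 against 1857, 454 and 44.4. Of the 5, 4 had a higher mean log2 level in Top2b-low mice and Hba-a1, a near-identical copy of Hba-a2, a lower one, and none was at 0. Rsad2 had the same order over the Top2b-low libraries, replicate 1 above 2 above 3, while Ifit1, Ifit3, Oasl2 and Usp18 were highest in replicate 2. The part of red cell RNA in the level of Rsad2 was not tested. In the N22 pair, where the erythroid sums were 3705 and 4287, Rsad2 was higher by 0.62 on the log2 scale, and Isg20 and Ube2l6 were at 11.4 and 10.6 and at 88.2 and 94.1.

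**Figure D4:**
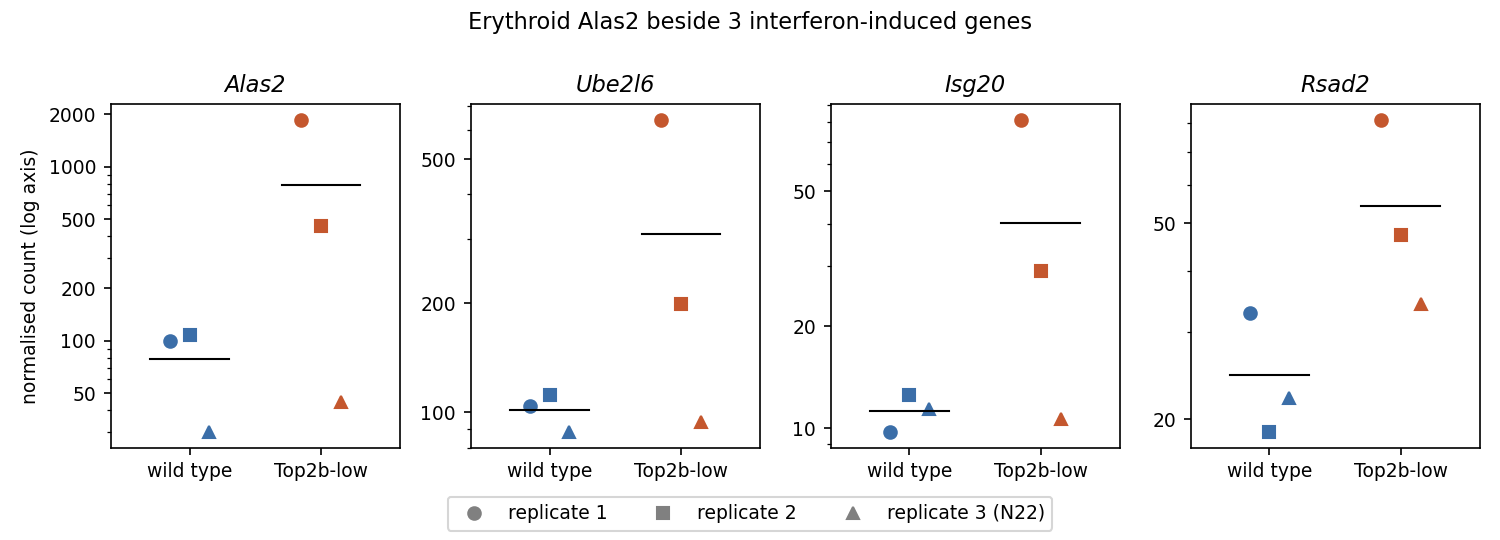
Normalised count (vertical log axis) of the erythroid gene Alas2 and of Ube2l6, Isg20 and Rsad2 in each library, with the arithmetic mean as a line. Alas2, Ube2l6 and Isg20 are high in Top2b-low replicates 1 and 2 and at the wild-type level in replicate 3. Rsad2 is highest in Top2b-low replicate 1, then replicate 2. In replicate 3 it lies just above wild type replicate 1 (34.3 against 32.8), a gap within counting error.

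Markers of cells that can respond to interferon are given next. The 16 microglia markers summed to 8188 to 8609 normalised counts in wild type against 8307 to 8855 in Top2b-low, with 9 higher and 7 lower and a median log2 fold change of 0.02. The 10 endothelial markers summed to 6024 to 6836 and 6517 to 6754, with 7 higher and a median of 0.11, and the 8 astrocyte markers to 39483 to 52820 and 37829 to 51348, with a median of −0.06. No marker of these 3 lists was at 0 in all libraries, and the choroid plexus and meningeal lists had medians of −0.08 and −0.01. Blood leukocyte markers were scarce, with sums of 245 to 336 and 297 to 405. Of those 15 genes 6 passed the filter, 5 higher and 1 lower, with a median of 0.35, and the neutrophil gene Ly6g was at 0 in all 6 libraries. The leukocyte integrin Itgal counted 30.4, 21.3 and 15.6 in wild type against 49.2, 31.6 and 20.1 in Top2b-low, with overlap. The part of any of these cells in the levels of the 9 genes was not tested.

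By likeness to the mean of the 9 genes over the 6 libraries (Pearson's r on the log2 scale, 5428 genes with an SD of at least 0.2), the closest were Casp8 (r = 0.97), Hhex (0.96), P2rx3 (0.95), Etaa1os (0.94), Sp100 (0.94), Clec5a (0.94), Cyp11a1 (0.94) and Slfn9 (0.93). These are a description, since the 6 libraries fall into 2 genotypes that share the difference. Casp8, a protease of the death receptor pathway, counted 46.2, 30.1 and 35.6 in wild type against 48.0, 57.1 and 42.6 in Top2b-low. It shows the pattern of the mean of the 9 genes, with wild type replicate 1 level with Top2b-low replicate 1 and Top2b-low replicate 2 above. Sp100, a nuclear body protein, was the one of these 8 from the pathway lists. Etaa1os is annotated opposite another gene, and its reads may belong to that gene where strand was not used in counting.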

How the data were processed

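Gene-level normalised counts for the 6 samples, grouped by title, were deposited as 1 table, recorded here as signal. Per the submitters' processing notes the tool was RSEM and the build mm39. The sources used here name no aligner, annotation or strand setting, while the kit was directional per the labels' protocols. Each deposited signal value was a whole multiple of the smallest in its library (100% of values, tolerance 1e-06 reads), which gave back whole numbers of 16963067 to 35246703 per library, called reads here. The sources used here do not say whether RSEM estimates were rounded to make them. Symbols came from GENCODE vM21, on another build, so no coordinates of it were used. Genes with a mean of at least 10 (17391) were compared on a log2 scale after a pseudocount of 1 was added, which understates the change of low genes, with limma 3.58.1 in R 4.3.3 (empirical Bayes with trend, two-sided, Benjamini-Hochberg adjustment, threshold 0.05). edgeR 4.0.16 (quasi-likelihood) ran on the reads of these genes and DESeq2 1.42.0 on all genes with reads, with its own filter. The fits without terms were tested on simulated data. Those data held no N22 difference, so that test does not tell how the fits behave with the one in these libraries.

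The 9 genes and all lists were chosen with earlier results of these data known. Named besides them were up to 3 genes per list by smallest unadjusted p and the 8 genes most alike. Ube2l6, Cmpk2, Ifit2, Ifit3b, Ifitm2, Itgal and the genes below the filter were chosen after their values were seen. Replicates were taken as separate mice, since the series text counts mice. Libraries of the same replicate number correlated in their deviations from the genotype means (0.33, 0.35 and 0.68), above the 0.1 at which numbers were taken to pair. Across numbers the correlation was 0.37 for wild type 1 with Top2b-low 2 and 0.24 for wild type 2 with Top2b-low 1. Both also exceed 0.1, so this check cannot show that numbers 1 and 2 pair.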

Additional observations from a re-analysis of the deposited data

How the results depend on the processing

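The count of genes called was 0 with each other pseudocount, filter and normalisation, with edgeR and DESeq2 without terms, with array weights, with an N22 term in limma or edgeR, and outside N22. DESeq2 called 13 genes with the replicate block and 21 with the N22 term, a setting added after the data were seen, and none of the 9 interferon-induced genes was among them. With the replicate block limma and edgeR called 0, and the lowest adjusted p of the 9 was 0.440, for Rsad2. The block cannot change limma's fold changes here. With 1 library left out in turn the count ran from 0 to 1 (Avp, without Top2b-low replicate 1), and the median of the 9 from 0.26 to 0.58. Over all settings the median lay between 0.26 and 0.58, and Rsad2, Ifit1, Ifit3, Oasl2 and Isg15 stayed higher in each. Their adjusted p ran from 0.440 to 1. Directions turned for the others. Ifih1 stood at 0.0105 with quantile normalisation, 0.065 outside N22 and −0.1306 to 0.0956 with 1 library left out, above 0 without wild type replicate 1 or Top2b-low replicate 3. Bst2 stood at −0.0213 outside N22, −0.0473 with array weights and −0.0426 to 0.2492 with 1 left out, and Irf7 at −0.23 with array weights and −0.10 to 0.30 with 1 left out, below 0 without wild type replicate 2 or Top2b-low replicate 3. Usp18 was at −0.0659 with array weights. The antigen presentation median was 0.0094 with array weights and −0.1181 to 0.0669 with 1 left out, the highest without wild type replicate 3. The cause was not tested. With a mean of at least 50 only 5 of the 9 genes were tested, and DESeq2 gave Usp18 no adjusted p with the N22 term. Depth limits Usp18, with 9 to 34 reads per library.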

Other observations

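Some interferon-induced genes lay below the filter on low values and are not described in the report. Of 12 pathway genes with reads and a mean under 10 normalised counts, 3 were higher in Top2b-low mice without overlap and 0 lower, where 2.09% of the 18426 genes with reads below the filter were higher and 2.13% lower without overlap. They are given as values and were chosen after these were seen. Cxcl10, a chemokine that draws in T cells, counted 6.07, 2.51 and 0.711 normalised counts in wild type against 16.0, 9.71 and 23.1 in Top2b-low. It rests on 1 to 39 reads. Mx1, a dynamin-like antiviral GTPase, counted 3.64, 0 and 1.42 against 4.92, 8.50 and 10.1, and Oas1b, of the oligoadenylate synthetase family with close copies, 4.86, 7.52 and 7.82 against 9.84, 13.4 and 12.4. With no filter limma gave Cxcl10 an unadjusted p of 0.00551, Mx1 one of 0.0149 and Oas1b one of 0.131, each with an adjusted p of 0.99996. Unlike Ifit1, Ifit3 and Oasl2, Cxcl10 and Mx1 had their highest value in Top2b-low replicate 3. Zbp1, a sensor of Z-form nucleic acid, counted 2.84 to 5.01 in wild type against 4.92, 13.4 and 5.32 in Top2b-low, with overlap.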
